A study of Mus musculus with 12 samples.

Results

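The 10 genes described here act on the route of glucose from the medium to lactate, with Gapdh and Pkm left out. They are the glucose transporter gene Slc2a1 and the genes of the glycolytic enzymes Hk2, Gpi1, Pfkl, Aldoa, Tpi1, Pgk1, Pgam1, Eno1 and Ldha. They were chosen by symbol from earlier results of these same libraries, so their levels and fold changes in the comparisons below are given as a description, and counts of rows past a threshold stand only beside the same share over all genes, with nothing read from them. The 10 symbols occupy 11 of the 56748 gene rows, because Aldoa stands on 2 identifiers, and all 11 rows had enough reads to be fitted among 16465 genes. RNA was sequenced from 12 libraries of C3H10T1/2 (10T1/2) cells, an established mouse mesenchymal line labelled wild type, so a single line stands for all groups. By the labels, all cells were held in suspension for 1 h in 0.5% serum (the methods of the paper have a suspension without serum and low serum at seeding), and then plated for 18 h on 12 kPa gels that carried type I collagen, applied at 0.05 mg/mL. The col1 group (n = 4) had collagen alone, the col1-ACLP group (n = 4) had collagen with 30 nM recombinant mouse ACLP, an extracellular matrix protein, and the col1-ACLP+SB group (n = 4) had the same collagen and ACLP with SB431542, an inhibitor of the TGFβ receptor kinase ALK5. No group had SB431542 without ACLP, so the inhibitor alone was not measured. The comparisons of both ACLP groups with col1 share the col1 libraries, and the comparison of the ACLP groups with each other uses them both again.

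Glycolysis splits 1 glucose into pyruvate and returns ATP without oxygen. Glucose enters through the GLUT1 transporter, is trapped as a phosphate by hexokinase, is committed by phosphofructokinase, is cleaved by aldolase, and is then oxidised and dephosphorylated down to pyruvate, which lactate dehydrogenase reduces to lactate. Several of these steps are carried out by isozymes from different genes, and many of the genes are known targets of the hypoxia-inducible factors, which bind the letters ACGTG or GCGTG, and of Myc, which binds CACGTG.

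The promoters of the members are given first, as a description of their sequence. Any part of it in the levels below was not tested. All 10 symbols matched the RefSeq promoter table (build GRCm38.p6), with 15 start sites, and each window of 300 bases runs from 250 before to 50 after a start. With both strands searched, ACGTG or GCGTG occurred in 12 of the 15 windows and in 8 of the 10 genes, against 43.8% of all 32851 windows and 46.7% of all 27025 symbols in the table. Some of these windows overlap: Aldoa and Eno1 each have neighbouring starts whose windows share the same matches, which are then counted more than once among the windows. The Tpi1 and Gpi1 windows and 1 of the 3 Aldoa windows held neither. CACGTG, which holds ACGTG on both strands and is then counted as 2 matches, was found in 1 of the 15 windows, that of Ldha, against 7.15% of all windows. The windows of the members were also richer in G and C, with a median of 65.3% against 52.7% over all windows, and the letters searched are themselves rich in G and C. The 250 bases before the start are shown for 5 genes that span the pathway and include the widest differences between groups, and for Gpi1 as a window without a match, with the matches on either strand in capitals. Ldha has 2 start sites, and the one with more matches is shown. Each was found exactly once in GRCm39, the build of the file, at the coordinates given.
Hk2 promoter, chr6:82751436-82751685 (- strand): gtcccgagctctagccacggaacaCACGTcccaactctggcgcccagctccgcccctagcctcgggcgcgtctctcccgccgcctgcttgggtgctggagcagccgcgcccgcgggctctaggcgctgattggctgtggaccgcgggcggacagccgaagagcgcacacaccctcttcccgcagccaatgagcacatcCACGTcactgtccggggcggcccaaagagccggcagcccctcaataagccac
Pfkl promoter, chr10:77845642-77845891 (- strand): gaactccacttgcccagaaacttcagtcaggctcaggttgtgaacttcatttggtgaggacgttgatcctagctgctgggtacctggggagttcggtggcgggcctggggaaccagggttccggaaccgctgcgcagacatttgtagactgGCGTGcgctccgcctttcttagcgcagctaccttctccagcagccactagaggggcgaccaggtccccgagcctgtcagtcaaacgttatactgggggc
Pgk1 promoter, chrX:105230456-105230705 (+ strand): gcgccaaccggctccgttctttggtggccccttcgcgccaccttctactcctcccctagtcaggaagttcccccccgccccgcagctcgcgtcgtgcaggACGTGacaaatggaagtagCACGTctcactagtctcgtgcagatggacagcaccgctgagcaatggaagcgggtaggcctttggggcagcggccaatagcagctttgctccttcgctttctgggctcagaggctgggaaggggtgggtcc
Pgam1 promoter, chr19:41900060-41900309 (+ strand): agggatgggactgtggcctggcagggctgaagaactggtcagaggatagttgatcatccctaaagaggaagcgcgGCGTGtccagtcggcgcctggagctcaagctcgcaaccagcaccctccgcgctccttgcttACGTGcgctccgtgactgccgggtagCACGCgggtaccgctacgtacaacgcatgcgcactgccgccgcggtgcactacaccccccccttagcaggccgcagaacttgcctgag
Ldha promoter, chr7:46494978-46495227 (+ strand): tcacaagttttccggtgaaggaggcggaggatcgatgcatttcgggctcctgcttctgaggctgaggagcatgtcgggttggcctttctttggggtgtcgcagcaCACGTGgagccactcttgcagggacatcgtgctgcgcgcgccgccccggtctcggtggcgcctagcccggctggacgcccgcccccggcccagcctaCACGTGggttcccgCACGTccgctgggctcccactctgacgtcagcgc
Gpi1 promoter, chr7:33929762-33930011 (- strand): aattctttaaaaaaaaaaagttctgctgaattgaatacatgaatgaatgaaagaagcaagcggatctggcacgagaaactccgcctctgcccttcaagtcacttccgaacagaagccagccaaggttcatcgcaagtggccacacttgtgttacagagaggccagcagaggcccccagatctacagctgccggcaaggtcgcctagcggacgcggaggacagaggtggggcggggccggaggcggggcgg
The Ldha stretch shown holds CACGTG at 2 places and a further CACGT, with 5 matches in all against 1 in the stretch before the other Ldha start, the Hk2 stretch holds CACGT at 2 places, and the Pfkl stretch holds a single GCGTG. A match is only a string of letters, and binding was not measured in these cells.

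Counts per library ran from 29246154 to 52201922. Levels are given in CPM (counts per 1e6 counts of the library) after TMM scaling of the library sizes, and a gene was called when edgeR's quasi-likelihood test gave an adjusted p under 0.05 with a log2 fold change of more than 0.58 in either direction. The libraries labelled col1 included 1 that stood apart: replicate 2 lay at -86.7 on the first principal component of all tested genes, and the other col1 libraries between -11.1 and -8.97. Without it, 9 members were called in the first comparison and 9 in place of 8 in the next, where 2.62% and 1.32% of the genes fitted then were called higher. Mitochondrial transcripts made up 2.39% to 2.98% of counts on col1, 2.00% to 2.21% on col1-ACLP and 2.1% to 2.88% with SB431542. Col1 and col1-ACLP did not overlap in that share, and its part in the results below was not tested. Of 10 mesenchymal markers 9 averaged at least 1 CPM, Twist2 being the exception, and their summed level was 33976 to 35174 CPM on col1, 43859 to 52781 on col1-ACLP and 40515 to 46063 with SB431542. The genes within that sum did not move together: by the adjusted p 2 of the 10, Col1a1 and Col1a2, rose against col1 in both comparisons, while 4 fell on col1-ACLP and 3 with SB431542, with Pdgfra called lower in both and a median log2 fold change of -0.12 on col1-ACLP. Immune markers summed to 9.14 to 10.5, 5.32 to 8.85 and 7.48 to 10.7 CPM in the same order, with 5 of 6 under 1 CPM in every library, Adgre1 and Cd3e at 0, and Cd68 making up nearly all of it. Endothelial markers summed to 5.06 to 8.30, 7.52 to 9.85 and 4.50 to 6.41 CPM. Epithelial markers stayed under 4.05 CPM and adipocyte markers under 0.41 CPM in every library, and no part of these sums in the results was tested.

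All 11 member rows were higher on col1-ACLP than on col1, each with its 4 col1-ACLP libraries above the 4 col1 libraries. The estimates ran from 1.28-fold for Gpi1 to 2.26-fold for Pfkl among the rows with ample counts. Together the 11 rows took up 0.222% ± 0.00613 of all counts on col1, 0.354% ± 0.0171 on col1-ACLP and 0.352% ± 0.00735 with SB431542 (SD, n = 4). In bulk RNA more cells with a high level and more RNA per cell cannot be told apart. Over all tested genes, 10.9% had their col1-ACLP libraries entirely above col1, and 6.7% had their col1-ACLP+SB libraries entirely above col1. Both thresholds together were passed by 9 of the 11 rows on col1-ACLP against col1, where 2.61% of all tested genes were called higher, and by 8 rows on col1-ACLP+SB against col1, where 1.27% were. Tested against the fold size itself (glmTreat at 0.58), 6 and 3 rows were called, against 0.875% and 0.328% of all genes called higher. With the adjusted p alone the counts were 11 and 10 rows, against 9.52% and 4.6% of all genes. Since these contrasts are among the values from which the genes were picked, nothing is read from these shares.

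**Figure D1:**
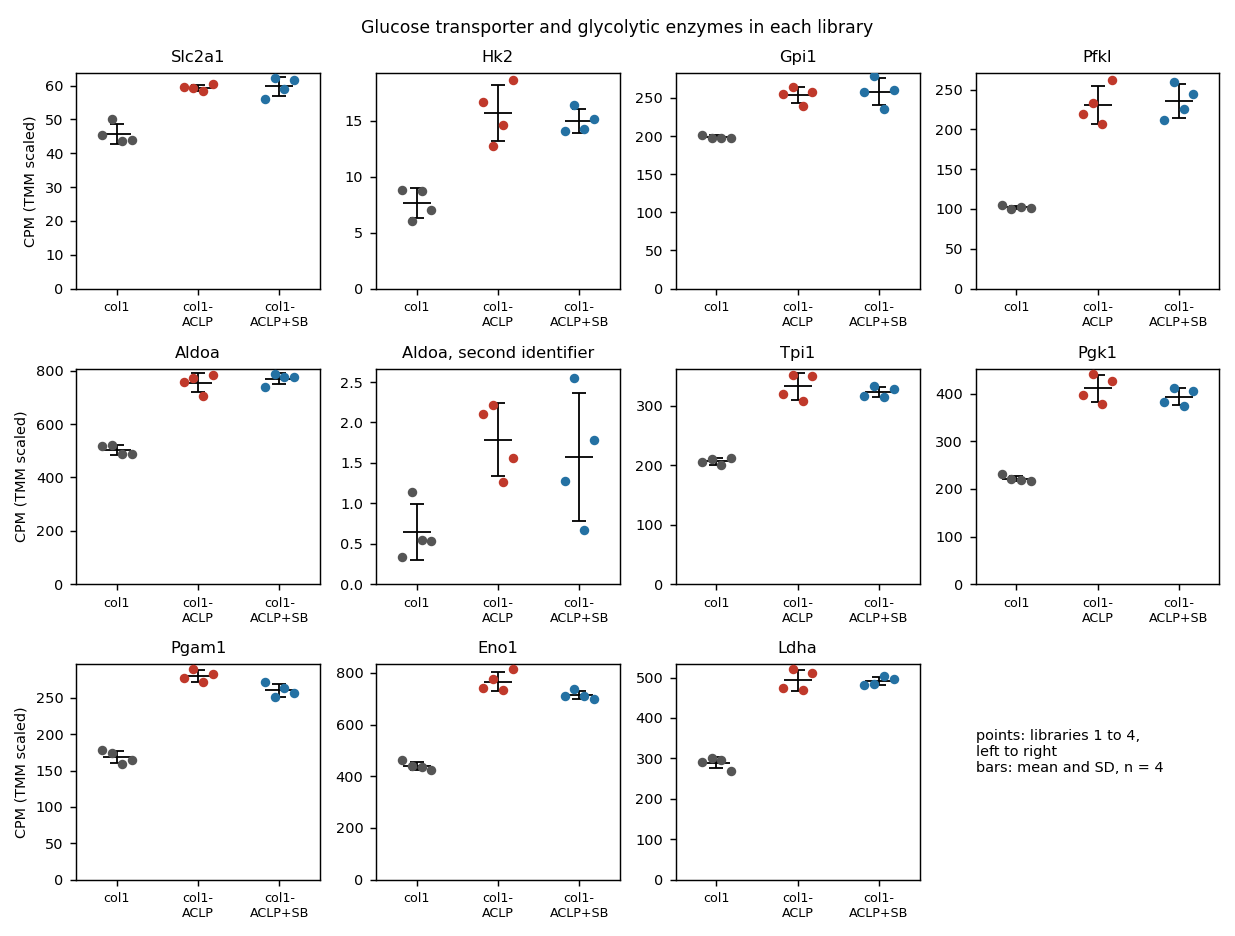
Level of each of the 11 rows in each library, in CPM after TMM scaling on axes that start at 0, for col1 (grey), col1-ACLP (red) and col1-ACLP+SB (blue). Points are libraries 1 to 4 from left to right, and bars give the mean and SD (n = 4). In 10 of the 11 panels both ACLP groups lie wholly above col1, and in the panel of the second Aldoa identifier 1 blue point, at 0.675 CPM, falls among the grey ones.

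Slc2a1 (ENSMUSG00000028645, GRCm39 chromosome 4, 118965908 to 118995180, + strand) encodes GLUT1, the basal glucose transporter of most cells. Its level was 45.3, 50.0, 43.7 and 43.8 CPM in the col1 libraries, 59.5, 59.2, 58.3 and 60.4 on col1-ACLP, and 56.0, 62.4, 58.9 and 61.7 with SB431542. The groups with ACLP overlapped each other and lay above col1, by 1.30-fold and 1.31-fold (log2 0.38 in each, standard error 0.0635 and 0.0633). This was under the size threshold. Slc2a1 was nonetheless the main transporter, with 52.9% ± 1.29 of the CPM per kilobase of the 7 facilitative glucose transporter genes listed for this step on col1 and 60.9% ± 2.36 on col1-ACLP. Slc2a8 and Slc2a10 held most of the rest, with 21.5% ± 2.25 and 23.0% ± 2.82 on col1, and neither passed the test in any comparison. Slc2a3 and Slc2a4, the neuronal and the insulin-responsive transporters, were too low to be tested.

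Hk2 (ENSMUSG00000000628, chromosome 6, 82702006 to 82751435, - strand) encodes the inducible hexokinase, which phosphorylates glucose at the mitochondrial surface. Its level was the lowest of the 10 genes per kilobase, and in CPM stood at 8.85, 6.04, 8.77 and 7.00 on col1, from 228 to 339 counts. On col1-ACLP it stood at 16.7, 12.8, 14.7 and 18.6 CPM, and with SB431542 at 14.1, 16.4, 14.3 and 15.2 CPM. The 2 groups with ACLP were 2.05-fold and 1.96-fold above col1 (log2 1.03 and 0.97, standard error 0.138 in each), with no overlap. Hk1, the constitutive hexokinase, held 96.5% ± 0.262 of hexokinase CPM per kilobase on col1, and stood at 344 ± 10.6, 347 ± 12.3 and 361 ± 18.8 CPM in the 3 groups, with log2 fold changes of 0.02 and 0.07 against col1 (adjusted p = 0.886 and 0.439, edgeR). Hk2 made up 3.07% ± 0.512 of hexokinase CPM per kilobase on col1, 6.04% ± 0.722 on col1-ACLP and 5.60% ± 0.246 with SB431542. The low Hkdc1, at 0.835 ± 0.669 CPM on col1, fell on col1-ACLP (log2 -2.13, standard error 0.711, adjusted p = 0.0377), but the call held in only 5 of the 12 fits that each leave out 1 library. Without col1 replicate 2, its highest library, the estimate was -1.49 (adjusted p = 0.221). Adpgk, which phosphorylates glucose with ADP, rose by log2 0.44 and 0.33 in the groups with ACLP (adjusted p = 0.000247 and 0.00815), under the size threshold.

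Gpi1 (ENSMUSG00000036427, chromosome 7, 33900755 to 33929761, - strand) interconverts glucose and fructose phosphates, and had the flattest profile. Its col1 libraries were at 202, 198, 197 and 197 CPM, the col1-ACLP libraries at 255, 265, 239.9 and 258, and the col1-ACLP+SB libraries at 258, 278, 235 and 260.3. The differences from col1 were 1.28-fold and 1.30-fold (log2 0.36 and 0.38, standard error 0.0503 and 0.0502). They were small but stood clear of the narrow col1 range.

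Pfkl (ENSMUSG00000020277, chromosome 10, 77822781 to 77845917, - strand) encodes the liver-type phosphofructokinase, the committing step, and differed most from col1 among the rows with ample counts. It lay at 104, 100.5, 102 and 101 CPM on col1, at 219, 233, 207 and 262 on col1-ACLP, and at 212, 259, 226 and 245 with SB431542. The lowest library with ACLP, at 207 CPM, was far above the highest col1 library, and the estimates were 2.26-fold and 2.31-fold (log2 1.18 and 1.21, standard error 0.0657 and 0.0656). Its isozymes showed smaller estimates. Pfkm, the muscle type, stood at 134 ± 3.35, 136 ± 4.53 and 132 ± 2.00 CPM (log2 0.03 and -0.02 against col1, adjusted p = 0.784 and 0.912). Pfkp, the platelet type, rose by log2 0.35 and 0.31 (adjusted p = 0.00298 and 0.0137), under the size threshold. Per kilobase, Pfkl went from 25.8% ± 0.644 of phosphofructokinase on col1 to 43.0% ± 1.94 on col1-ACLP and 44.3% ± 2.24 with SB431542, and Pfkm from 67.8% ± 0.365 to 51.0% ± 2.02 and 49.8% ± 2.46. The libraries of col1 and of the groups with ACLP did not overlap in either share. In CPM without length, Pfkl went from 35.6% ± 1.15 to 53.4% ± 1.68 on col1-ACLP, and Pfkm from 46.7% ± 0.616 to 31.7% ± 1.66. The summed phosphofructokinase level was 59.1 ± 1.30, 80.2 ± 4.78 and 79.6 ± 3.05 CPM per kilobase.

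**Figure D2:**
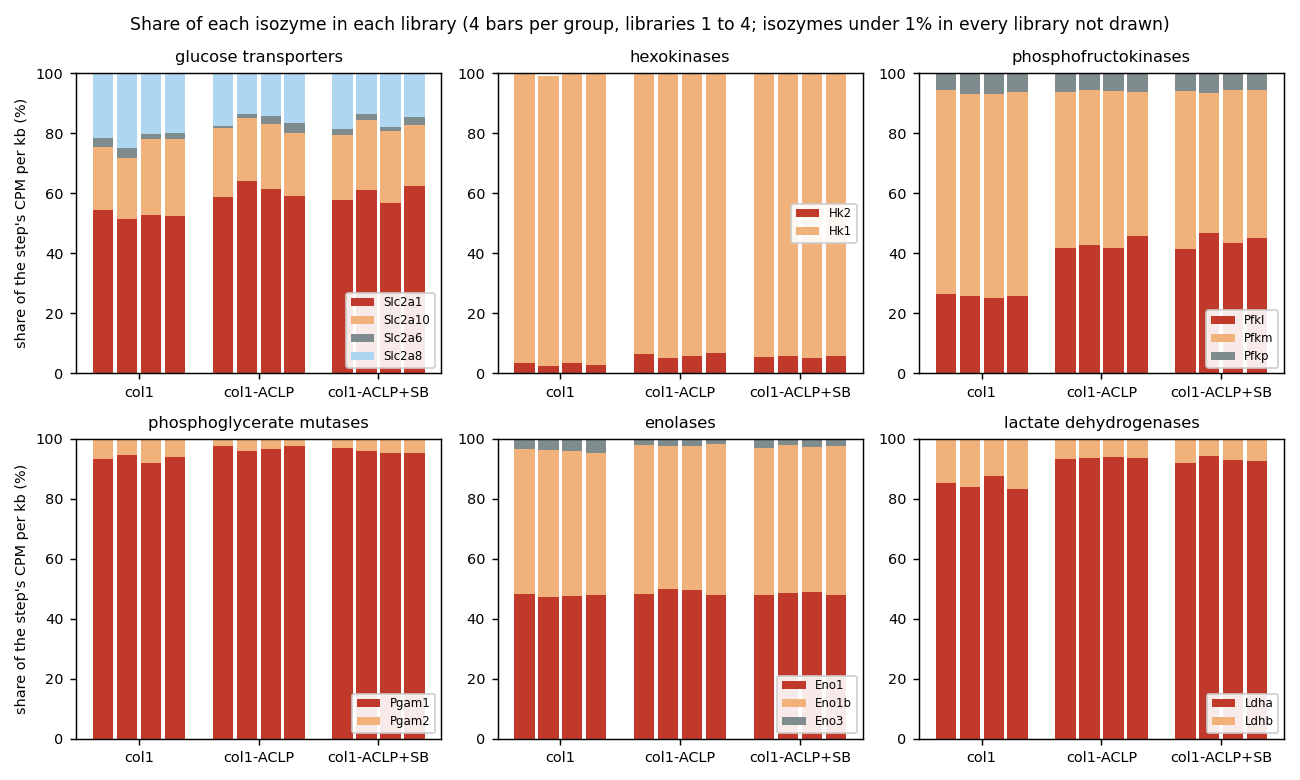
Share of each isozyme in the CPM per kilobase of its step, in percent, with 1 stacked bar per library and 4 bars per group. Red marks the isozyme described here: its bar is taller with ACLP for phosphofructokinase (25.8% to 43.0% on average), lactate dehydrogenase (84.9% to 93.5%, which without length is 92.2% to 96.8%) and the glucose transporters (52.9% to 60.9%), stays small for hexokinase (3.07% to 6.04%), and is nearly level for enolase (47.7% to 48.9%, which without length is 72.1% to 73.2%).

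Aldoa, the aldolase of muscle and most other tissues, had the highest level of the 10 genes per kilobase. Its main identifier (ENSMUSG00000030695, chromosome 7, 126394406 to 126399923, - strand) stood at 518, 523, 488 and 487 CPM on col1, 759.9, 775, 704 and 783 on col1-ACLP, and 739, 789, 777 and 777 with SB431542. The differences from col1 were 1.50-fold and 1.53-fold (log2 0.58 and 0.61, standard error 0.0433 in each). It sat at the size threshold on col1-ACLP, and of the 12 fits that each leave out 1 library it was called in 8, with estimates from 0.57 to 0.62. The other identifier (ENSMUSG00000114515, 126399962 to 126408280) lies just upstream on the same strand and held at most 80 counts in a library. Its levels were 0.339, 1.14, 0.546 and 0.535 CPM on col1, 2.11, 2.21, 1.27 and 1.56 on col1-ACLP, and 1.28, 2.55, 0.675 and 1.79 with SB431542, with log2 estimates of 1.48 and 1.28 and a standard error of 0.451 in each. It was called in 7 of the 12 fits in the comparison of col1-ACLP with col1 and in 2 of 12 in that of col1-ACLP+SB with col1.

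Tpi1 (ENSMUSG00000023456, chromosome 6, 124787549 to 124791259, - strand) interconverts the products of aldolase. Its level was 206, 210.1, 200 and 213 CPM on col1, 321, 352, 308 and 351 on col1-ACLP, and 316, 334, 316 and 329 with SB431542. Both groups with ACLP lay clear of col1, by 1.61-fold and 1.56-fold (log2 0.68 and 0.64, standard error 0.0488 in each). Gapdh, the dehydrogenase that follows, had only 20.1 ± 4.83 CPM on col1, 29.8 ± 3.43 on col1-ACLP and 38.1 ± 3.65 with SB431542, and is no member. It rose by log2 0.57 and 0.92 against col1 (standard error 0.124 and 0.123, adjusted p = 0.00156 and 6.99e-06), past the size threshold only with SB431542, while the difference between the 2 groups with ACLP was 0.35 (adjusted p = 0.168). The level of Gapdh is taken up again with its copies below.

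Pgk1 (ENSMUSG00000062070, X chromosome, 105230706 to 105247305, + strand) encodes phosphoglycerate kinase, the earlier of the ATP-yielding steps. It stood at 230.3, 221, 218 and 218 CPM on col1, 398, 441, 379 and 427 on col1-ACLP, and 384, 411, 374 and 405 with SB431542. With 1.86-fold and 1.77-fold (log2 0.89 and 0.83, standard error 0.0501 and 0.0500), it ranked after Pfkl and Hk2 among the genes with ample counts. Pgk2, the testis isozyme, had no count.

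Pgam1 (ENSMUSG00000011752, chromosome 19, 41900362 to 41907099, + strand), the mutase of most tissues, had 178, 174, 159.8 and 164 CPM on col1, 278, 289.8, 271 and 282 on col1-ACLP, and 271, 252, 264 and 256 with SB431542. The estimates were 1.66-fold and 1.54-fold (log2 0.73 and 0.63, standard error 0.0474 and 0.0473), and 3 of the 4 SB431542 libraries lay below the col1-ACLP range. Its muscle isozyme Pgam2, at 5.12 ± 0.735 CPM on col1, did not pass the test (log2 -0.39, adjusted p = 0.232). Pgam1 held 93.3% ± 1.05 of mutase CPM per kilobase on col1 and 96.8% ± 0.811 on col1-ACLP.

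Eno1 (ENSMUSG00000063524, chromosome 4, 150321178 to 150333336, + strand), the enolase of most tissues, lay at 462, 439, 438 and 424 CPM on col1, 741, 777, 735 and 814 on col1-ACLP, and 712, 737, 711 and 698 with SB431542. The differences were 1.74-fold and 1.62-fold (log2 0.80 and 0.70, standard error 0.0430 and 0.0429). The lowest library with ACLP exceeded the highest col1 library by a wide margin. The retrogene Eno1b on chromosome 18 was counted at 156 ± 6.66, 267 ± 22.4 and 252 ± 6.32 CPM, and rose by log2 0.78 and 0.70 against col1 (standard error 0.0541 in each, adjusted p = 4.08e-11 and 8.39e-10). Eno1b and Eno1 held nearly equal shares of enolase per kilobase, 48.2% ± 0.688 and 47.7% ± 0.397 on col1. This rests on the long gene length that the file gives for Eno1, and in CPM without length Eno1 held 72.1% ± 0.289 and Eno1b 25.5% ± 0.438. Reads within an exact run of 835 bases fit both genes, so the counts at Eno1b may hold reads of Eno1, which was not tested.

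Ldha (ENSMUSG00000063229, chromosome 7, 46490899 to 46505051, + strand) encodes the lactate dehydrogenase subunit that favours lactate formation. Its libraries stood at 291, 300.2, 297 and 269 CPM on col1, 473, 520.3, 469 and 510.4 on col1-ACLP, and 483, 484, 504 and 497 with SB431542. Both differences from col1 were 1.70-fold (log2 0.77, standard error 0.0467 in each). Ldhb, the heart-type subunit, fell, from 24.4 ± 3.16 CPM on col1 to 16.1 ± 1.14 and 17.9 ± 2.53 (log2 -0.60 and -0.45, standard error 0.113 and 0.112, adjusted p = 0.000341 and 0.00942), and was past the size threshold on col1-ACLP only, in 9 of the 12 fits with a library left out (not without col1 replicate 2, col1 replicate 4 or col1-ACLP replicate 3, with estimates from -0.67 to -0.53 over all 12). The Ldha share of the lactate dehydrogenase CPM per kilobase was 84.9% ± 1.93 on col1, 93.5% ± 0.347 on col1-ACLP and 92.9% ± 0.924 with SB431542. In CPM without length the change was smaller, from 92.2% ± 1.07 on col1 to 96.8% ± 0.176 on col1-ACLP and 96.5% ± 0.472 with SB431542. Pkm, the pyruvate kinase gene between Eno1 and Ldha and no member, stood at 826 ± 27.2, 1388 ± 86.5 and 1291 ± 61.9 CPM. It rose by log2 0.75 and 0.64 (standard error 0.0454 and 0.0453, adjusted p = 3.65e-12 and 1.39e-10).

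**Figure D3:**
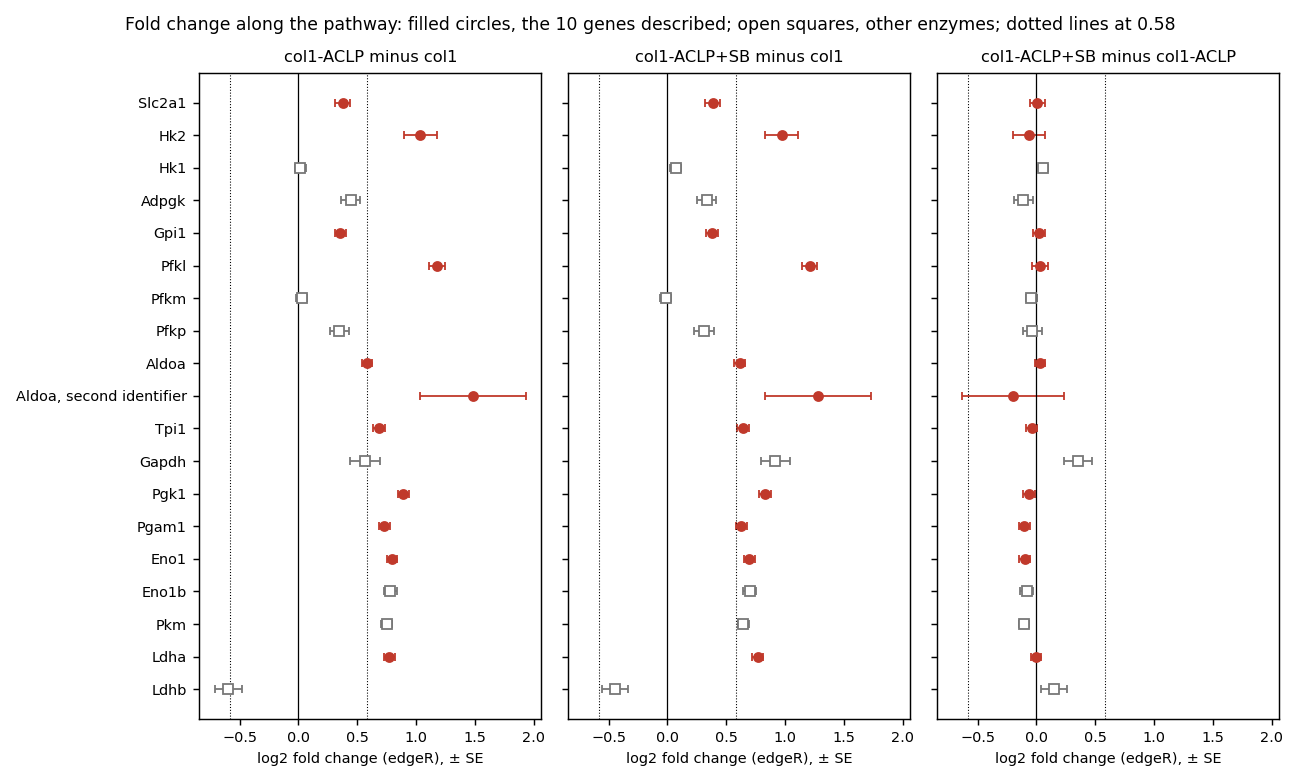
Log2 fold change ± standard error from edgeR, with genes in pathway order from uptake at the top to lactate at the bottom, in 3 panels for the 3 comparisons. Filled circles are the members, open squares other enzymes of the same steps, and dotted lines mark 0.58. Against col1 every circle lies right of 0, while Hk1 and Pfkm lie near 0 and Ldhb left of it. In the panel of col1-ACLP+SB minus col1-ACLP the circles lie between -0.20 and 0.03.

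With and without SB431542, the members on ACLP lay close to each other. The log2 differences between col1-ACLP+SB and col1-ACLP were 0.01 for Slc2a1 (standard error 0.0631), -0.07 for Hk2 (0.134), 0.02 for Gpi1 (0.0501), 0.03 for Pfkl (0.0643) and 0.03 for Aldoa (0.0432). They were -0.04 for Tpi1 (0.0485), -0.06 for Pgk1 (0.0496), -0.10 for Pgam1 (0.0470), -0.10 for Eno1 (0.0427) and 0.00 for Ldha (0.0463). The second Aldoa identifier had -0.20 (0.433). The ranges of the 2 groups overlapped in all 11 rows. Most genes overlapped likewise: of all 16465 tested genes, 601 had their col1-ACLP+SB libraries entirely above col1-ACLP and 744 entirely below. By the unadjusted p of edgeR, 2 of the 11 rows were under 0.05, beside 12.8% of all tested genes. Over all tested genes 0.085% were called higher and 0.0425% lower in this comparison, and 0.571% and 0.905% passed the adjusted p alone.

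Per kilobase of the gene length in the file, the order on col1 was Aldoa (173 ± 6.55 CPM per kilobase), Pgk1 (98.8 ± 2.65), Ldha (87.4 ± 4.17), Pgam1 (85.2 ± 4.17), Eno1 (81.9 ± 2.94), Tpi1 (75.3 ± 2.1), Gpi1 (30.8 ± 0.338), Pfkl (15.3 ± 0.263), Slc2a1 (13.0 ± 0.845) and Hk2 (1.28 ± 0.231). The ranges of Ldha, Pgam1 and Eno1 overlapped, although Ldha lay above Eno1 in all 4 libraries. Among the members, those from aldolase to lactate stood above the 4 of the earlier steps. The order at the top rested on the lengths used. Per kilobase of the canonical transcript, a length chosen after the data were seen, Aldoa (334 ± 12.6) was followed on col1 by Eno1 (192 ± 6.90), Ldha (182 ± 8.68), Tpi1 (129 ± 3.60), Pgk1 (122 ± 3.26) and Pgam1 (93.9 ± 4.60), while Gpi1, Pfkl, Slc2a1 and Hk2 came last in the same order as before. On col1-ACLP, with the gene length of the file, the order at the top was again Aldoa (260 ± 12.3), Pgk1 (183 ± 12.4) and Ldha (149 ± 7.83), followed by Eno1 (142 ± 6.80) and Pgam1 (141 ± 3.95). The ranges of Ldha, Eno1 and Pgam1 overlapped each other there. Pfkl stood at 34.5 ± 3.55 and its libraries overlapped those of Gpi1, at 39.4 ± 1.64.

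Within groups the rows differed in how far they went along with each other. Replicate 3 was the lowest col1-ACLP library in 10 of the 11 rows, and replicate 2 was the highest col1-ACLP+SB library in 9 of 11. After the group means were taken away, the Pearson correlation of each row with the mean of the other 10, over the 12 libraries, was 0.83 for Gpi1, 0.75 for Pgk1, 0.68 for Pfkl, 0.67 for Aldoa, 0.66 for Tpi1 and 0.65 for Slc2a1. It was 0.44 for Eno1, 0.32 for Ldha, 0.27 for the second Aldoa identifier, -0.05 for Pgam1 and -0.11 for Hk2. All rows of a library share its depth and scaling factor.

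Of the 16454 other fitted genes, 10 were taken whose log2 CPM followed the mean of the members most closely over the 12 libraries by Pearson correlation. The choice is loose, since 2 of these 10 are also among the 10 closest by Spearman correlation, and 5 to 9 when a library is left out. They were Eno1b (r = 0.985), Pkm (0.982), P4ha2 (0.980), the processed pseudogene Gm13394 (0.980), Aldh18a1 (0.980), P4ha1 (0.979), Foxd1 (0.978), Trpv4 (0.978), Trib3 (0.978) and Egln1 (0.976). These points share the 12 libraries and the difference between groups, and after the group means were taken away the values ran from 0.35 for P4ha1 to 0.72 for Foxd1. The counts at Eno1b may also hold reads of the member Eno1, which was not tested. P4ha1 and P4ha2 encode catalytic subunits of collagen prolyl hydroxylase, and Egln1 encodes an oxygen-sensing prolyl hydroxylase of HIF. Aldh18a1 makes a precursor of proline, Foxd1 is a forkhead transcription factor, Trpv4 is a calcium channel, and Trib3 is a stress-induced pseudokinase. The largest difference among them was that of Trib3, at log2 1.91 and 1.59 against col1 (standard error 0.101 and 0.100, adjusted p = 2.96e-13 and 1.89e-11).

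Several members have near copies elsewhere in the genome, which bears on how their reads could be counted. In the canonical transcript of Pgk1, 95.7% of bases lay in stretches of at least 100 bases found exactly at another place in GRCm39, and the share was 93.4% for Pgam1, 71.2% for Eno1, 23.3% for Gpi1, 22.7% for Tpi1 and 20.5% for Ldha. Slc2a1, Hk2, Pfkl and Aldoa had none of that length. Counted from 32 bases on, the share was 72.3% for Aldoa, 83.0% for Ldha, 66.1% for Gpi1, 64.5% for Tpi1, 4.41% for Pfkl, 1.67% for Hk2 and 0 for Slc2a1. For Gapdh, from 100 bases on, the share was 86.1%. The matches overlapped 132 annotated loci, of which 74 were processed pseudogenes. These loci include genes that hold a copy within them, so 132 is not a number of copies. The copies of Eno1 held many reads, 156 ± 6.66 CPM at Eno1b and 168 CPM on average at the transcribed pseudogene Gm4735 on col1, whereas the Pgk1 copy with the longest match, Pgk1-rs7, held 1.13 ± 0.414 CPM. Summed with its 4 copies, Eno1 stood at 770.1 ± 32.1 CPM on col1 and 1332 ± 82.9 on col1-ACLP, a log2 ratio of 0.79 against 0.80 for the gene alone. For Pgk1, Pgam1, Tpi1, Gpi1 and Ldha the sum with the copies changed that log2 ratio by under 0.01. Gapdh and its 84 pseudogene or short coding copies summed to 233 ± 17.6, 350.4 ± 14.7 and 349.9 ± 14.2 CPM in the 3 groups, of which the pseudogene Gm13394 alone had 196, 293 and 286 CPM. The sum was higher by log2 0.59 on col1-ACLP and by 0.58 with SB431542. How reads that fit several places were counted is not given in the sources used here.

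**Figure D4:**
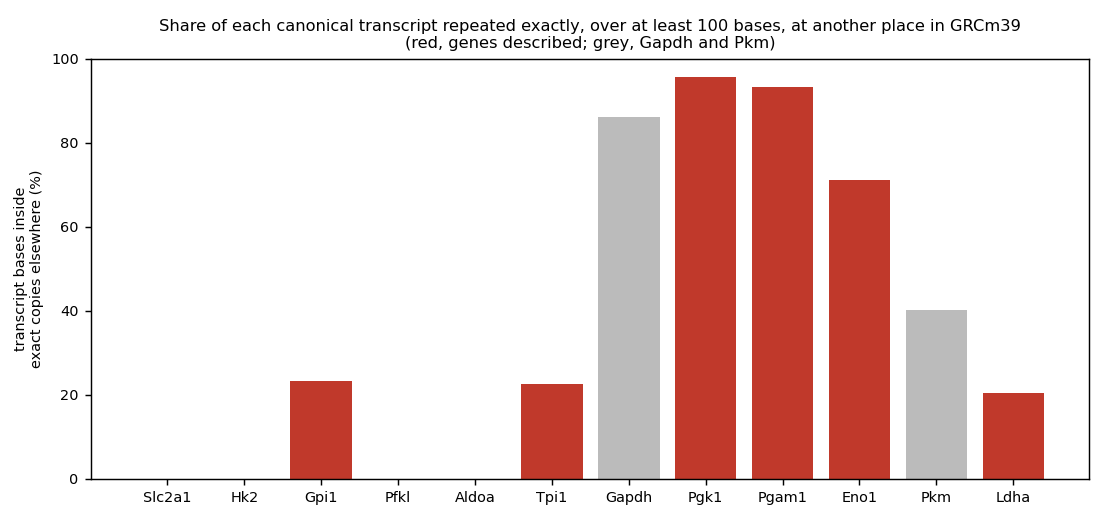
Percentage of the bases of each canonical transcript that lie in exact copies of at least 100 bases at another place in GRCm39, in pathway order. Red bars are members and grey bars Gapdh and Pkm. Pgk1 (95.7%), Pgam1 (93.4%) and Gapdh (86.1%) are almost wholly repeated, and Slc2a1, Hk2, Pfkl and Aldoa have no copy of that length, although 72.3% of Aldoa lies in exact copies of at least 32 bases.

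The other genes around glycolysis were followed in 11 lists, 118 genes of which were tested, and in these genes the adjusted p-values are those of edgeR, with the Benjamini-Hochberg method applied over all genes. On col1-ACLP against col1, 11 of the 118 were called higher and 5 lower, beside 2.61% and 2.36% of all tested genes, and the median log2 fold change was 0.06 against -0.01 over all genes. On col1-ACLP+SB against col1, 11 were higher and 3 lower, beside 1.27% and 1.01%, with medians of 0.05 and 0.00. By the adjusted p alone 30 rose and 13 fell on col1-ACLP, beside 9.52% and 8.41% of all genes, and 25 rose and 10 fell with SB431542, beside 4.6% and 4.54%. The members had medians of 0.77 and 0.70.

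Of 16 tested genes of the other isozymes and steps, Eno1b and Pkm were called higher and Hkdc1 and Ldhb lower on col1-ACLP, and Eno1b, Pkm and Gapdh higher with SB431542. None of 8 tested glucose and lactate transport genes was called against col1 by edgeR, DESeq2 or limma-voom, with 3 at an unadjusted p under 0.05 on col1-ACLP and 2 with SB431542, beside 28.3% and 19.9% of all tested genes. They include the lactate exporter genes Slc16a1 and Slc16a3.

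The regulators of flux showed opposite changes within a single family. Pdk1, a kinase that switches off pyruvate dehydrogenase, rose from 40.4 ± 2.69 CPM to 71.0 ± 2.09 and 78.6 ± 6.00 (log2 0.81 and 0.96, standard error 0.0666 and 0.0665, adjusted p = 8.50e-10 and 1.11e-10). Its relative Pdk4 fell from 34.9 ± 6.62 CPM to 15 ± 1.59 and 15.4 ± 3.60 (log2 -1.21 and -1.17, standard error 0.142 in each, adjusted p = 4.50e-07 and 1.43e-06). Tigar, a phosphatase of fructose bisphosphate, rose on col1-ACLP (log2 0.60, standard error 0.176, adjusted p = 0.0177), and with SB431542 its value was 0.14 (adjusted p = 0.752). The call held in 8 of the 12 fits, and was lost without col1 replicate 3 or 4 or col1-ACLP replicate 2 or 4, with adjusted p up to 0.0808. The difference between the groups with ACLP was -0.46 (adjusted p = 0.229). Txnip, an arrestin that restrains GLUT1, fell by 0.51 and 0.31 on the log2 scale (adjusted p = 2.85e-07 and 0.00058), under the size threshold. In all, 3 of 14 rose and 3 fell on col1-ACLP by the adjusted p, beside 9.52% and 8.41% of all tested genes. With SB431542 2 rose and 2 fell, beside 4.6% and 4.54%.

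Around and beyond pyruvate, of the 7 genes of pyruvate entry into mitochondria, 17 of the citric acid cycle, 8 of the pentose phosphate pathway, 13 of the glycogen and hexosamine branches and 3 of the glycerol phosphate branch, none was called against col1 by edgeR or limma-voom, and DESeq2 called 1 gene, in the glycerol phosphate branch on col1-ACLP. On col1-ACLP 1, 7, 4, 6 and 3 of them had an unadjusted p under 0.05, and with SB431542 0, 5, 4, 4 and 2, where 28.3% and 19.9% of all tested genes did. Over all tested genes, 9.52% rose and 8.41% fell by the adjusted p alone on col1-ACLP, and 4.6% and 4.54% with SB431542. By the same measure, 3 of the 17 citric acid cycle genes rose on col1-ACLP and 2 fell, and 0 rose and 1 fell with SB431542. The risers were Mdh2 (log2 0.30, adjusted p = 0.000117), Ogdh (0.20, adjusted p = 0.0127) and Dlst (0.17, adjusted p = 0.0198), and the fallers Idh2 (-0.44, adjusted p = 2.14e-06) and Idh3b (-0.15, adjusted p = 0.0485), of which Idh2 fell with SB431542 too (-0.33, adjusted p = 0.000199). Of the 8 pentose phosphate genes 3 rose and 1 fell on col1-ACLP, and 1 rose and 1 fell with SB431542. Taldo1, transaldolase, rose in both (log2 0.52 and 0.37, adjusted p = 6.44e-08 and 2.37e-05), and H6pd, a dehydrogenase of the endoplasmic reticulum, fell in both (-0.28 and -0.20, adjusted p = 0.000367 and 0.0191). Of the 13 glycogen and hexosamine genes 5 and 4 rose and none fell, among them Gys1, glycogen synthase (log2 0.50 and 0.58, adjusted p = 4.05e-06 and 7.86e-07). Of the 4 tested gluconeogenesis genes 1 rose and 1 fell by the adjusted p in both comparisons with col1. Pcx, pyruvate carboxylase, fell (log2 -0.34 and -0.28, adjusted p = 0.000247 and 0.00386), under the size threshold. Pck2, the mitochondrial carboxykinase, rose from 100.2 ± 5.20 CPM to 168 ± 14.3 and 150.2 ± 14.1 (log2 0.74 and 0.58, adjusted p = 3.91e-09 and 4.93e-07). The second of these sat at the size threshold and was called in 8 of the 12 fits, not without col1 replicate 3 or 4, col1-ACLP replicate 2 or col1-ACLP+SB replicate 2, with estimates from 0.52 to 0.63.

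**Figure D5:**
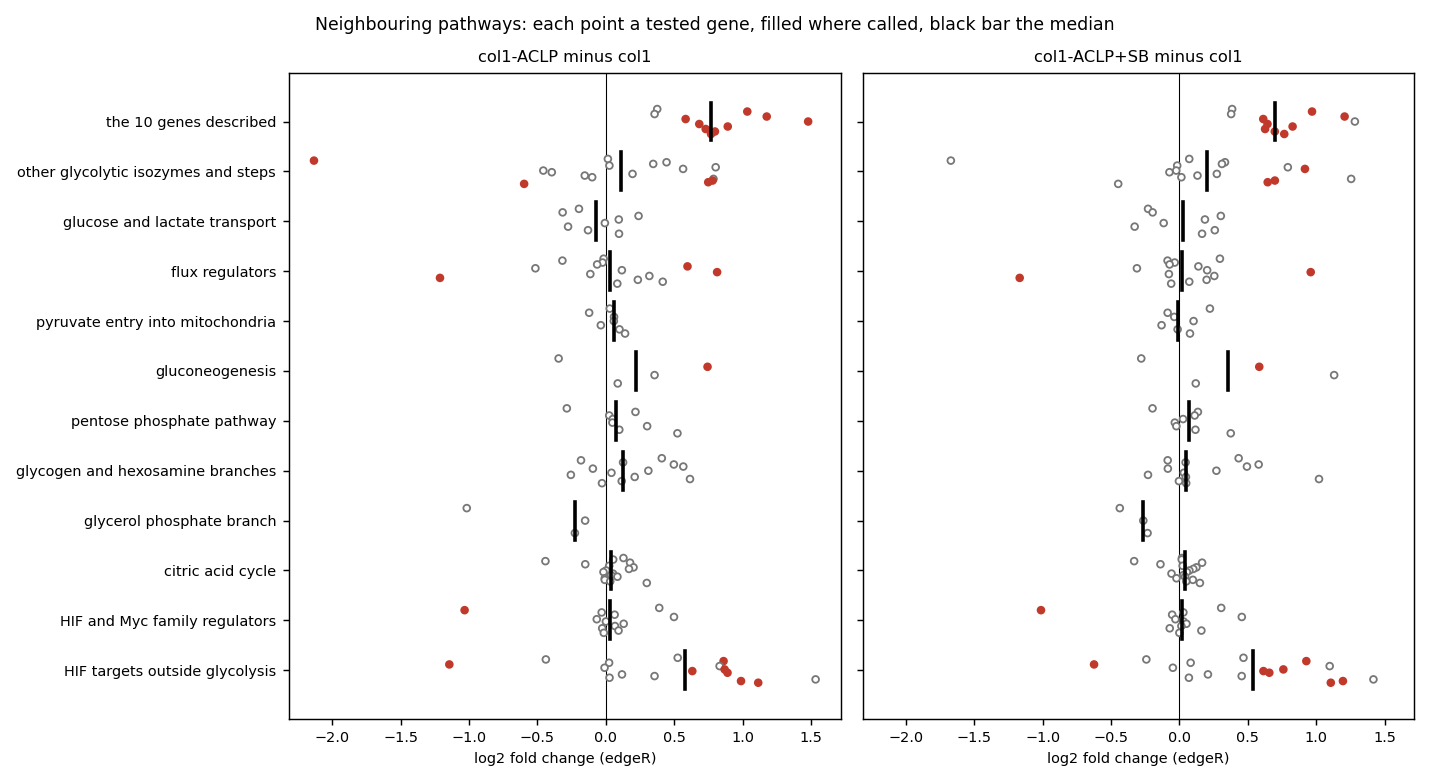
Log2 fold change of every tested gene in the members and in 11 neighbouring lists, against col1, for col1-ACLP (left) and col1-ACLP+SB (right). Filled points were called and open points were not, and the black bar is the median of the list. The members' medians are 0.77 and 0.70, the HIF targets' 0.58 and 0.54, and the citric acid cycle's 0.04 in both panels.

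Among regulators, the transcripts of the hypoxia-inducible factors went in opposite directions. Hif1a rose from 186 ± 7.72 CPM to 244 ± 8.11 and 230 ± 14.4 (log2 0.39 and 0.31, standard error 0.0507 in each, adjusted p = 2.06e-06 and 0.000127), under the size threshold. Epas1, which encodes HIF-2α, fell from 31.3 ± 2.25 CPM to 15.3 ± 1.27 and 15.5 ± 0.563 (log2 -1.03 and -1.01, standard error 0.0922 and 0.0918, adjusted p = 4.40e-09 and 1.30e-08). Egln1 rose by log2 0.50 and 0.46 (adjusted p = 7.50e-07 and 5.92e-06). Myc had 86.3 ± 6.42, 90.5 ± 11.0 and 87.2 ± 9.72 CPM and did not pass the test (log2 0.07 and 0.01, adjusted p = 0.659 and 0.96).

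Over all tested genes, 2.61% were called higher and 2.36% lower on col1-ACLP against col1, and 1.27% and 1.01% with SB431542. The list of genes known as HIF targets outside glycolysis was, like the others, chosen with earlier results of these data known. Of its 16 tested genes, 6 were called higher and 1 lower in each comparison with col1. Their medians were 0.58 and 0.54, against -0.01 and 0.00 over all genes. The higher ones were Ak4, a mitochondrial adenylate kinase (log2 1.11 in both, adjusted p = 6.48e-07 and 1.41e-06), Higd1a, a respiratory chain factor (0.99 and 1.20, adjusted p = 3.10e-08 and 2.63e-09), Ero1a, a protein-folding oxidase (0.89 and 0.66, adjusted p = 1.76e-11 and 9.76e-09), P4ha1 (0.87 and 0.76), Bnip3, a mitophagy receptor (0.86 and 0.93), and P4ha2 (0.63 and 0.61). Car9, a carbonic anhydrase widely used as a marker of low oxygen, fell from 16.2 ± 1.26 CPM to 7.33 ± 1.23 and 10.5 ± 1.29 (log2 -1.14 and -0.62, standard error 0.134 and 0.131, adjusted p = 4.22e-07 and 0.00185). Without col1-ACLP+SB replicate 2 the calls of Car9 and P4ha2 on col1-ACLP+SB were lost, at log2 -0.54 and 0.58, under the size threshold. Ndrg1 and Bnip3l, of the same list, had log2 values between -0.05 and 0.08 and did not pass the test. Between the groups with ACLP none of the 118 genes was called by edgeR, DESeq2 or limma-voom, with 16 at an unadjusted p under 0.05, a share near the 12.8% of all tested genes. By the adjusted p alone Ero1a was lower with SB431542 (log2 -0.23, standard error 0.058, adjusted p = 0.0404), and this held in 4 of the 12 fits with a library left out, with adjusted p from 0.0191 to 0.121.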

How the data were processed

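RNA was measured in 12 libraries of 10T1/2 cells, 4 per group, grouped by the labels. The deposited table holds the authors' raw read counts for each gene, not normalized. Per the paper's methods reads were mapped with HISAT2 to GRCm39 (the submitters' processing notes name mm10, and the coordinates in the file are those of GRCm39), while the counter, its strand setting and its handling of reads that fit several places are not given in the sources used here. Totals ran from 29246154 to 52201922 counts. The spread between replicates, as the root of the common dispersion, came to 0.153. Counting error is larger than that in the libraries with the lowest counts of rows such as the second Aldoa identifier and Hkdc1. The reads carry no molecular identifiers.

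Counts were fitted in R 4.3.3 with edgeR 4.0.16 (filterByExpr, TMM, glmQLFit, glmQLFTest, group as the only term, all 12 libraries), with Benjamini-Hochberg adjustment over 16465 genes. The fit was tested on simulated data. The members and lists were chosen with earlier results of these data known. Standard errors are the log2 fold change over the root of the F statistic. Named genes were all member rows, genes of the lists called in a comparison (at most 4 per list and comparison), isozymes over 5% of a step, the 10 genes most like the members, and genes sharing sequence with a member. Slc2a3, Slc2a4, Pgk2, Slc16a1, Slc16a3, Pcx, Col1a1, Col1a2, Pdgfra, Adpgk, Txnip, Taldo1, H6pd, Gys1, Mdh2, Ogdh, Dlst, Idh2, Idh3b, Hif1a, Myc, Ndrg1, Bnip3l and the called HIF targets beyond 4 were named after their values were seen. Alternatives were other scalings, filters, DESeq2 1.42.0, limma 3.58.1 (voom), a replicate block, other thresholds and each library left out. The paper calls the replicates biological, without saying in the sources used here how the cultures were separated, and p-values measure the spread between these samples. Replicate pairs differed beyond sampling noise (chi-square per degree of freedom 7.49 to 19.7). Canonical GENCODE vM39 transcripts were searched in GRCm39 by exact words of 32 bases joined into runs.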

Additional observations from a re-analysis of the deposited data

Results flagged for a closer look

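The level of Gpi1 in col1 replicate 1, 202 CPM, lay apart from the other col1 libraries, which stood between 197.4 and 197.7 CPM. Its gap took up 0.921 of the range of the group, above the 95% critical value of the Dixon test for 4 samples. It was the only one among 33 groups of 4 checked, of which chance flags about 1 in 20.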

How the results depend on the processing

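All 660 recomputed log2 fold changes of the 11 member rows moved by less than the SD between replicates of the row. For the fits with a library left out this was nearly fixed in advance, since 1 of 4 libraries can move a group mean only so far. Nothing is read from it. In those fits the second Aldoa identifier ran from 1.27 to 1.91 on col1-ACLP against col1, and from 0.95 to 1.71 on col1-ACLP+SB against col1. Against the fold size of 0.58 itself (glmTreat), 6 and 3 members were called on col1-ACLP and col1-ACLP+SB against col1, 10 and 6 pathway genes in the same comparisons, and 230, 81 and 0 of all genes in the 3 comparisons. With the adjusted p alone there were 43, 35 and 1 pathway genes and 2953, 1504 and 243 of all genes. Between the groups with ACLP, where edgeR called 21 of all genes, DESeq2 and the fit without a filter each called 46 and limma-voom 16. With each library left out, the comparison of col1-ACLP with col1 called 7 to 9 members, 14 to 18 pathway genes and 723 to 839 of all genes. That of col1-ACLP+SB with col1 called 8 to 9, 11 to 17 and 343 to 384, and that between the groups with ACLP called 0, 0 to 1 and 10 to 29. That last count was 10 without col1-ACLP replicate 4 and 11 without col1-ACLP+SB replicate 4, and the single pathway gene appeared without col1-ACLP replicate 2 or col1-ACLP+SB replicate 2. Without gene length, the gain in share on col1-ACLP was 2.13 percentage points for Hk2 (2.97 per kilobase), 1.59 for Pgam1 (3.54) and 4.62 for Ldha (8.65). Of the 10 genes most like the members, 2 were shared with the 10 by Spearman correlation and 5 to 9 with those from 11 libraries (5 without col1-ACLP+SB replicate 2 and 6 without col1 replicate 2). The cause of these shifts was not tested. The replicate numbers do not pair the libraries (correlation of same-numbered deviations -0.037 to 0.036 over 12 pairs), and with the replicate block 9, 8 and 0 members, 15, 14 and 0 pathway genes and 785, 357 and 17 of all genes were called. Depth limits the second Aldoa identifier most, with 13 to 80 counts per library.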
